A study of Mus musculus with 11 samples.

Results

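Hepcidin and 9 further genes that bring iron into cells, store it, export it or set the level of hepcidin were examined in the liver RNA of mice with diet-induced steatohepatitis. The 10 genes were chosen by name: the hepcidins *Hamp* and *Hamp2*, the plasma iron carrier *Trf* (transferrin), the receptors *Tfrc* and *Tfr2*, the exporter *Slc40a1* (ferroportin), the ferritin chains *Ftl1* and *Fth1*, and the signalling genes *Hfe* and *Bmp6*. They are 10 of the 46603 genes of the count table, and all 10 were among the 13880 genes with enough counts to be tested.

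Liver was taken from 11 leptin-deficient males of the B6.V-Lep ob/JRj strain (ob/ob), aged 5–6 weeks when they began the AMLN diet, which is high in trans-fat, fructose and cholesterol. After 15 weeks of diet, with the diet continued, 7 mice were gavaged with vehicle (0.5% carboxymethyl cellulose) and 4 with INT-767, each day over 8 weeks, at a dose of 10 mg/kg. INT-767 is a bile acid analog that activates the bile acid receptors FXR and TGR5. All 11 mice therefore shared the leptin deficiency, the diet, the gavage and a baseline liver biopsy, and neither lean nor chow-fed mice were analysed here. The counts of a library summed to between 7966963 and 15295230 in the vehicle group (n = 7) and to between 7381211 and 16022459 in the INT-767 group (n = 4). Levels are given in CPM, counts scaled to 1 common library total after TMM normalization, differences as the log2 fold change of INT-767 over vehicle with its standard error (SE), and a gene is said to have risen or fallen where edgeR's quasi-likelihood test gave an adjusted p under 0.05.

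Hepcidin is a small peptide hormone that hepatocytes release into the blood. It binds ferroportin, the only known iron exporter of mammalian cells, blocks it and has it degraded, so that less iron leaves the gut, macrophages and liver. Hepatocytes make hepcidin when iron-loaded transferrin is sensed through TFR2 and the receptor-associated protein HFE, when endothelial cells supply BMP6 and BMP2, and when interleukin-6 acts through STAT3. Mice carry a pair of hepcidin genes, *Hamp* and *Hamp2*, and the iron-lowering activity is known for *Hamp*.

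Both hepcidin genes lie on the minus strand of chromosome 7 in GRCm38, *Hamp* at chr7:30942368-30944032 and *Hamp2* at chr7:30922372-30924681. Only 3.87% of the 75-base windows of the *Hamp* transcript occur in *Hamp2*, so that few reads of that length could come from either gene. Of the exon bases of *Hamp2*, 15.3% lie opposite a gene on the other strand, *Gm44662*, and it is not known here whether the counting used strand.

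The 250 bases before the RefSeq start of each gene, from the RefSeq promoter table (GRCm38.p6), show where the letters of a BMP-responsive element (GGCGCC) and of a STAT site (TTCNNNGAA) occur. Both strands were searched, and capitals mark the matches. The intervals are chr7:30944030-30944279 for *Hamp* and chr7:30924182-30924431 for *Hamp2*, printed in the direction of transcription. The RefSeq start of *Hamp2* lies inside the gene as GENCODE draws it above, so that its interval falls within that gene, and the bases before the outermost GENCODE start were not searched.
Hamp promoter: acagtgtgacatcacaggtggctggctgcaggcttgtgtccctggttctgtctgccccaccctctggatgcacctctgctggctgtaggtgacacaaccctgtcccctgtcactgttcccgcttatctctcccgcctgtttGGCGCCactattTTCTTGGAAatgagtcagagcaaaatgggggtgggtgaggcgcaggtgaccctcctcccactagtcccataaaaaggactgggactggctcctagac
Hamp2 promoter: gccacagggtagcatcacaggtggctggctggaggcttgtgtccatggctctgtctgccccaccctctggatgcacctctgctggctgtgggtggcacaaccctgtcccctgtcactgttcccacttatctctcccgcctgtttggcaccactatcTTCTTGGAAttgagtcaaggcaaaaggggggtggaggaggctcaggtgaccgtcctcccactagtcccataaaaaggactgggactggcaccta
In *Hamp*, GGCGCC began 109 bases and TTCNNNGAA 97 bases before the RefSeq start. For *Hamp2*, TTCNNNGAA began 94 bases before the RefSeq start, and GGCGCC was not among these letters. Of 32851 mouse promoters in the table, 9.59% held GGCGCC and 7.02% held TTCNNNGAA within the same length. Promoters were given for 8 of the 10 genes, and *Tfrc* was the other gene with a match to GGCGCC. A match is a description of the letters and not a site of binding.

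Of the 10 genes, 2 rose with INT-767, *Hamp2* and *Slc40a1*, and none fell by edgeR, DESeq2 or limma-voom with or without sample weights. Among all 13880 genes tested, 1349 passed the test, 9.72% of them. By direction 700 rose (5.04%) and 649 fell (4.68%). Without adjustment, 3 of the 10 had a p under 0.05 and a positive fold change and none a negative one, and the third was *Tfrc*. Over all genes tested, 17.4% had an unadjusted p under 0.05 and a positive fold change, 15.6% a negative one and 32.9% either. The fold change was positive for 9 of the 10 genes, with a median of 0.23 on the log2 scale, against -0.01 over all genes tested. With scaling by library size only, where *Tfr2*, *Ftl1*, *Fth1* and *Hfe* turned negative, it was positive for 5 of the 10, with a median of 0.02, against -0.22 over all genes. Without INT-767 mouse 2, 0 of the 10 passed the test, and 274 of all genes did. In none of the 10 did the groups separate completely, which they did in 7.51% of the genes tested.

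*Hamp2* was the member with the clearest difference. With vehicle the 7 mice had 21.4, 22.2, 26.6, 39.2, 22.03, 9.49 and 30.7 CPM, in the order of their numbers, and with INT-767 the 4 mice had 82.9, 89.7, 81.9 and 33.6 CPM. INT-767 mice 1, 2 and 3 lay above every vehicle mouse, and INT-767 mouse 4 fell between vehicle mice 4 and 7. The mean was 24.5 ± 9.16 CPM with vehicle (SD, n = 7) and 72.0 ± 25.8 CPM with INT-767 (SD, n = 4), a 2.94-fold ratio of the means. The log2 fold change was 1.55 (SE 0.32), with an adjusted p of 0.0144 by edgeR. Over the mice, an exact Mann-Whitney test (two-sided) gave p = 0.0121, and 0.00606 is the smallest value that 4 against 7 mice can give. Without INT-767 mouse 2 the log2 fold change of *Hamp2* was 1.43 and its adjusted p 0.0714.

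*Hamp*, the hepcidin with the known hormone activity, varied more between mice of the same group. Vehicle mice had 159, 186, 234, 149, 188, 16.2 and 95.0 CPM, and INT-767-treated mice 411, 184, 558 and 127 CPM. INT-767 mice 1 and 3 were above all vehicle mice, whereas INT-767 mice 2 and 4 were within their range, and vehicle mouse 6 was the lowest of all. The means were 146.8 ± 71.5 CPM (SD, n = 7) and 319.8 ± 200.8 CPM (SD, n = 4). The log2 fold change of 1.12 (SE 0.54) did not pass the test (adjusted p = 0.162 by edgeR), with p = 0.315 in the exact Mann-Whitney test. When INT-767 mouse 3 was left out, the log2 fold change of *Hamp* was 0.72, its lowest value over the left-out mice, and the adjusted p stayed above 0.05 whichever mouse was left out. With limma-voom and sample weights the log2 fold change was 1.89 (adjusted p = 0.120), and with a replicate block in edgeR 0.59 (adjusted p = 0.574). The block compares mice of the same number, so that vehicle mice 5, 6 and 7 do not enter its fold change.

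**Figure D1:**
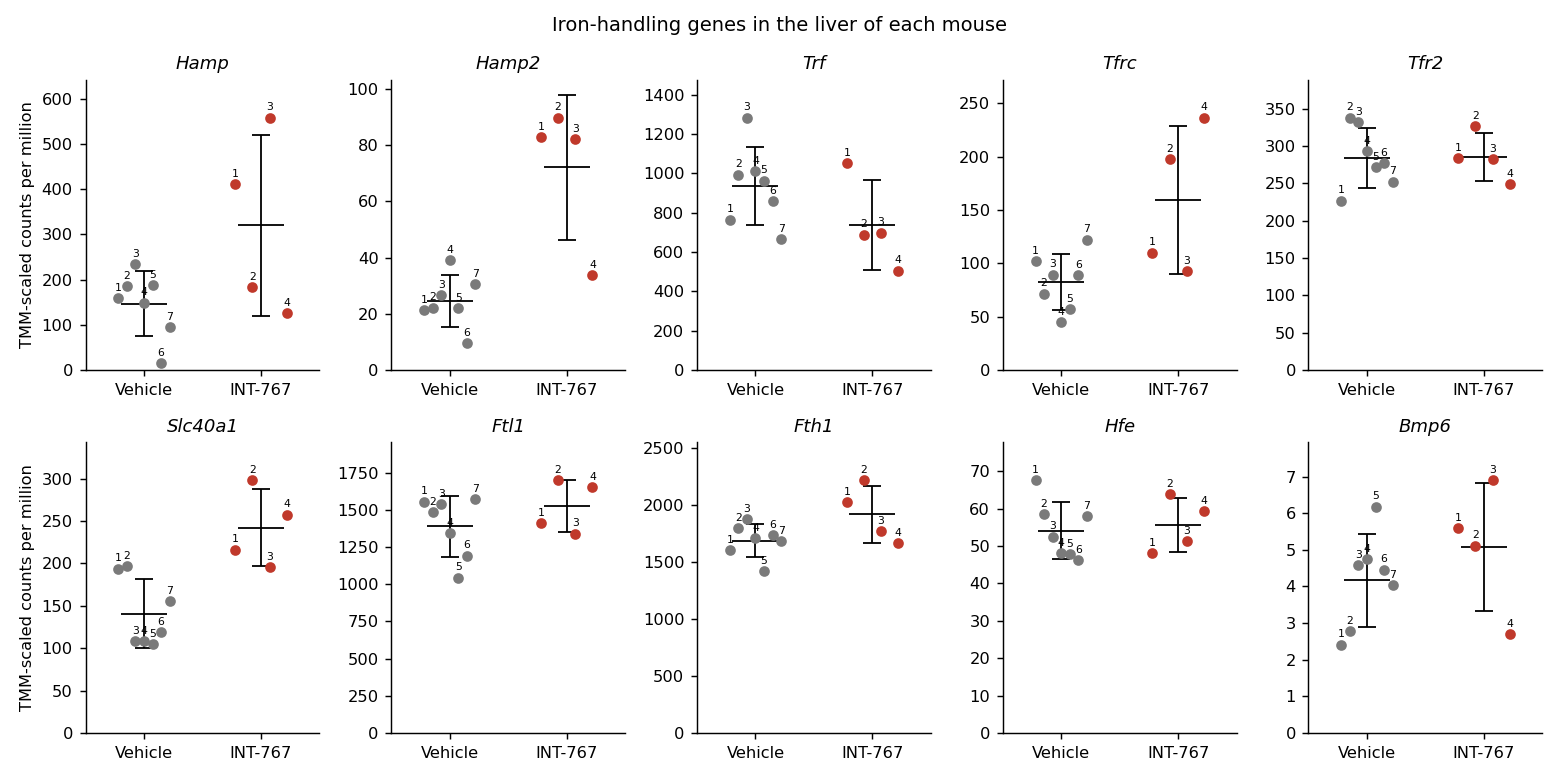
Levels of the 10 iron-handling genes in CPM, for 7 Vehicle mice (grey) and 4 INT-767 mice (red), with linear axes from 0. Points are mice numbered as in the text, and bars are the mean ± SD. For *Hamp2*, 3 of the 4 INT-767 mice lie above every Vehicle mouse, and for *Hamp* 2 of the 4 do.

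*Hamp2* contributed between 10.2% and 36.9% of the hepcidin counts of a vehicle mouse and between 12.8% and 32.8% of those of an INT-767-treated mouse. The highest share, 36.9%, was that of vehicle mouse 6, the mouse with the lowest *Hamp*. The log2 ratio of *Hamp2* to *Hamp* was -2.36 ± 0.93 with vehicle (SD, n = 7) and -2.01 ± 0.74 with INT-767 (SD, n = 4). This difference of 0.35 did not pass the exact Mann-Whitney test (p = 0.412), so that a larger rise of *Hamp2* than of *Hamp* was not shown. It was 0.03 without INT-767 mouse 2 and 0.62 without vehicle mouse 6, the lowest and highest values over the left-out mice.

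**Figure D2:**
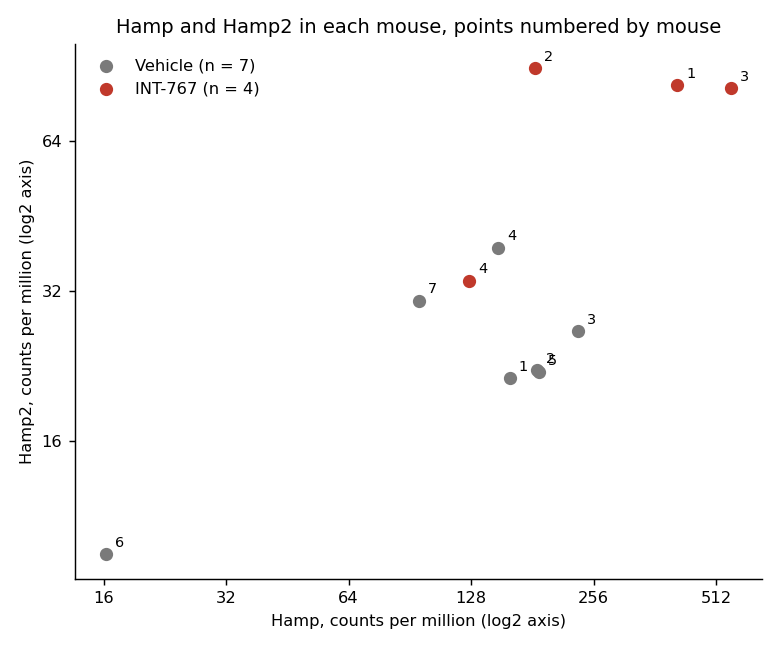
Level of *Hamp* (horizontal) and *Hamp2* (vertical) in each of the 11 mice, in CPM on log2 axes, with Vehicle mice in grey and INT-767 mice in red. INT-767 mice 1, 2 and 3 lie above all others on the *Hamp2* axis, at 81.9 to 89.7 CPM, and Vehicle mouse 6 lies lowest on both axes, at 16.2 and 9.49 CPM.

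Within groups, deviations of the mice in *Hamp* were compared with those in the 9 other members and in the BMP targets *Id1*, *Smad6* and *Smad7* and the STAT3 targets *Socs3* and *Saa1*, on log2 CPM after the mean of each group was subtracted (n = 11 mice). For *Hamp2* Pearson's r was 0.73 (exact permutation p = 0.0393, adjusted p = 0.397) and Spearman's rho 0.16 (exact permutation p = 0.645, adjusted p = 0.903). Without the pair of mice farthest from the median of *Hamp*, vehicle mouse 6 and INT-767 mouse 4, r was -0.38, so that the relation rested on those mice. In the 7 vehicle mice alone r was 0.76 (exact permutation p = 0.110, adjusted p = 0.658). For *Id1*, an inhibitor of transcription that BMP signalling turns on, r was 0.68 (exact permutation p = 0.0567, adjusted p = 0.397) and rho 0.40 (exact permutation p = 0.237, adjusted p = 0.621), and r was 0.43 without the same pair of mice. None of the 14 relations passed the adjusted threshold by either coefficient, and 1 of them, that with *Hamp2*, had an unadjusted permutation p under 0.05. The smallest r was -0.49, for *Tfrc* (exact permutation p = 0.130, adjusted p = 0.516), where rho was -0.55 (exact permutation p = 0.115, adjusted p = 0.436) and r -0.59 without that pair.

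Across all genes tested, those whose group-centred levels followed *Hamp* most closely over the 11 mice were *Arl4d* (r = 0.84), *Atoh8* (r = 0.80), *Serpina3f* (r = 0.80), *Rnf113a1* (r = 0.79) and *Rhou* (r = 0.79). *Atoh8*, a transcription factor, is also on the list of BMP and SMAD genes used here. It had 17.8 ± 9.03 CPM with vehicle (SD, n = 7) and 13.999 ± 6.31 CPM with INT-767 (SD, n = 4), and did not pass the test (log2 fold change -0.35, adjusted p = 0.519 by edgeR). *Arl4d* rose, from a mean of 15.5 CPM to 32.4 CPM (log2 fold change 1.06, adjusted p = 0.0148 by edgeR), and the other 3 did not pass the test. The closest to *Hamp2* were *Psme2b* (r = 0.93), *Creld1* (r = 0.93), *Trappc2l* (r = 0.91), *Rasl11b* (r = 0.90) and *Kctd15* (r = 0.88). Of these *Kctd15* fell (log2 fold change -0.73, adjusted p = 0.0249 by edgeR), and the other 4 did not pass the test. Low levels were among these genes, with vehicle means of 0.97 CPM for *Psme2b*, 1.35 CPM for *Rnf113a1*, 2.92 CPM for *Rasl11b* and 3.23 CPM for *Serpina3f*. The correlations are descriptions of 11 libraries and carry no test.

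*Slc40a1*, which encodes ferroportin, the target of hepcidin, rose with INT-767. Vehicle mice had 193.8, 196.5, 108.0, 108.1, 105.2, 118.4 and 155.1 CPM, and INT-767-treated mice 216.1, 297.9, 195.7 and 257.4 CPM. Vehicle mice 1 and 2 were level with the lowest INT-767-treated mouse, and the groups overlapped by less than 1 CPM. The mean rose from 140.7 ± 40.9 CPM (SD, n = 7) to 241.8 ± 45.4 CPM (SD, n = 4), 1.72-fold. The log2 fold change of 0.78 (SE 0.22) had an adjusted p of 0.0416 by edgeR, with p = 0.0121 in the exact Mann-Whitney test. The call was close to the threshold. It was lost in 7 of the 11 fits that left out a mouse (vehicle mice 3 to 7 and INT-767 mice 2 and 4), with an adjusted p of up to 0.165, and with scaling by library size only (log2 fold change 0.57, adjusted p 0.0691) or by upper-quartile factors (0.70, adjusted p 0.0567), while the log2 fold change stayed between 0.65 and 0.88 over the left-out mice.

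*Tfrc*, the transferrin receptor that most cells use to take up iron, had 102, 71.8, 89.6, 45.3, 57.0, 89.3 and 122 CPM in the vehicle mice and 110, 198, 92.9 and 237 CPM in the INT-767-treated mice. INT-767 mice 2 and 4 were above all vehicle mice, and mice 1 and 3 were within the vehicle range. With a mean of 82.5 ± 26.5 CPM (SD, n = 7) against 159 ± 69.0 CPM (SD, n = 4), the log2 fold change was 0.95 (SE 0.30) and the adjusted p 0.0605 by edgeR, just short of the threshold. DESeq2 called it (adjusted p = 0.0232), as did the edgeR fits without vehicle mouse 1, vehicle mouse 7, INT-767 mouse 1 or INT-767 mouse 3 (adjusted p 0.0389, 0.0449, 0.0450 and 0.0370). Mice 2 and 4 of the INT-767 group, highest in *Tfrc*, were the lower pair in *Hamp*. The other transferrin receptor, *Tfr2*, which senses iron-loaded transferrin in hepatocytes, had 284 ± 40.3 CPM with vehicle (SD, n = 7) and 286 ± 31.9 CPM with INT-767 (SD, n = 4), a log2 fold change of 0.01 (SE 0.15).

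*Trf*, the liver's iron carrier for the plasma, was the single member with a negative fold change. Its mean was 935 ± 199 CPM with vehicle (SD, n = 7) and 736 ± 229 CPM with INT-767 (SD, n = 4), a log2 fold change of -0.34 (SE 0.22, adjusted p = 0.280 by edgeR), and INT-767 mouse 4, at 506 CPM, was below every vehicle mouse. The log2 fold change was -0.21 without INT-767 mouse 4, -0.56 without INT-767 mouse 1 (adjusted p = 0.0847) and -0.53 with scaling by library size only (adjusted p = 0.145). Of the 75-base windows of the *Trf* transcripts 55.8% also occur in the annotated gene *Gm20425*, so that its level depends on how shared reads were counted.

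The ferritin chains, which together form the shell that stores iron, were the most abundant members. *Ftl1*, the light chain, had between 1045 and 1572 CPM with vehicle and between 1341 and 1699 CPM with INT-767 (log2 fold change 0.14, SE 0.16, adjusted p = 0.552 by edgeR). *Fth1*, the heavy chain, whose protein oxidises iron, had between 1422 and 1878 CPM with vehicle and between 1666 and 2217 CPM with INT-767 (log2 fold change 0.18, SE 0.14, adjusted p = 0.362 by edgeR). The groups overlapped for both chains. Sequence shared with other loci was 51.3% of the windows for *Ftl1*, mostly with *Ftl1-ps1*, and 26.5% of its exon bases lie opposite *Gm10252*, which makes its absolute level uncertain.

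*Hfe*, whose protein works with TFR2 in iron sensing, had 54.1 ± 7.69 CPM with vehicle (SD, n = 7) and 55.7 ± 7.20 CPM with INT-767 (SD, n = 4), a log2 fold change of 0.04 (SE 0.14). *Bmp6*, the endothelial ligand that raises hepcidin, was the least abundant member, with 4.17 ± 1.27 CPM (SD, n = 7) and 5.08 ± 1.76 CPM (SD, n = 4). Its log2 fold change was 0.27 (SE 0.29, adjusted p = 0.522 by edgeR), and INT-767 mouse 3, at 6.90 CPM, was the one INT-767-treated mouse above the vehicle range. The log2 fold change of *Bmp6* was 0.10 without that mouse, 0.48 without INT-767 mouse 4, 0.06 with scaling by library size only and 0.53 with the offset for GC content and length, with an adjusted p above 0.05 in each of these fits.

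Per kilobase of the longest complete coding transcript, levels with vehicle ran from *Ftl1* (1436 ± 212 CPM per kb) and *Fth1* (1130 ± 98.0) through *Trf* (364 ± 77.3), *Hamp* (358 ± 174), *Tfr2* (92.6 ± 13.1), *Hamp2* (56.1 ± 20.97), *Slc40a1* (41.8 ± 12.1), *Tfrc* (16.9 ± 5.43) and *Hfe* (15.2 ± 2.15) to *Bmp6* (1.16 ± 0.35; SD, n = 7 throughout). Neighbours in this order that differed by less than either SD were *Trf* and *Hamp*, and *Tfrc* and *Hfe*, and the levels of *Hamp2* and *Slc40a1* differed by less than the SD of *Hamp2* and by more than that of *Slc40a1*. With INT-767, *Hamp* reached 780 ± 490 CPM per kb and *Hamp2* 165 ± 59.1 CPM per kb (SD, n = 4).

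Several members carry iron-responsive elements, short hairpins in the messenger RNA that the iron regulatory proteins bind when iron is scarce. Bound in the 5′ UTR they hold back translation, and in the 3′ UTR they keep the message from decay. Transcripts were searched for a C bulge, a stem of paired bases and the loop CAGTGN with a last base other than G, here in capitals. The 4 genes below held one or more, and the sequences are shown because messages with the element in the 3′ UTR and in the 5′ UTR are both among the members. Coordinates are those of GRCm38, on the plus strand for *Tfrc* and *Fth1* and on the minus strand for *Slc40a1* and *Ftl1*.
Tfrc, chr16:32631220-32631246: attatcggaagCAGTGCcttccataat
Tfrc, chr16:32631599-32631625: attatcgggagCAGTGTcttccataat
Tfrc, chr16:32631664-32631690: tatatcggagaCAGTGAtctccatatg
Tfrc, chr16:32631711-32631737: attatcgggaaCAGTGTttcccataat
Slc40a1, chr1:45925466-45925492: aacttcagctaCAGTGTtagctaagtt
Ftl1, chr7:45459780-45459806: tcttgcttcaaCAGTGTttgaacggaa
Fth1, chr19:9982733-9982759: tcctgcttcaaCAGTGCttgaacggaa
*Tfrc* held 4 such hairpins in its 3′ UTR, and *Slc40a1*, *Ftl1* and *Fth1* held 1 each in the 5′ UTR. Of 22108 mouse genes with an annotated start codon, 22 matched in a 5′ UTR (0.0995%) and 107 in a 3′ UTR (0.484%). Among the 4, *Slc40a1* rose, *Tfrc* missed the threshold narrowly, and neither ferritin passed the test. Translation was not measured.

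Around the members, 85 genes of 6 iron-related groups were examined, of which 79 could be tested. Of these, 3 rose, 4 fell and 72 did not pass the test, so that 8.86% were called, against 9.72% of all genes tested. Their median log2 fold change was 0.06, against -0.01 over all genes. In 6 of the 79 the groups did not overlap, against 7.51% of all genes tested. The counts moved with single mice. They were 0 higher and 2 lower without INT-767 mouse 2, where 274 of all genes were called. They were 15 higher and 7 lower without vehicle mouse 1, where 3276 of all genes were called. Without vehicle mouse 6, 1 rose (573 of all genes called), and 5 and 6 rose without INT-767 mice 1 and 3 (1739 and 1407). Without INT-767 mouse 1 and vehicle mouse 7, 5 and 6 fell (1739 and 1292 of all genes called). Of the called genes, *Scara5* and *Hmox1* passed the test whichever mouse was left out, *Lcn2* and *Hmox2* missed it without INT-767 mouse 2, and *Abcb10* missed it without that mouse or vehicle mouse 6. *Steap3* missed it in 4 and *Slc11a2* in 8 of the 11 fits that left out a mouse. With scaling by library size only, none of the 3 higher genes passed the test, although their fold changes stayed positive.

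No gene of the 18 tested in the BMP and SMAD group passed the test, and 1 had an unadjusted p under 0.05 in the edgeR fit, against 32.9% of all genes tested. That gene was the activin receptor *Acvr2a*, which was named after its value was seen (log2 fold change 0.89, adjusted p = 0.0764). DESeq2 and limma-voom with sample weights each called 1 gene of the group higher, and limma-voom 0. In either direction they called 2811, 2808 and 1124 of all genes. The log2 fold changes were 0.14 for the BMP target *Id1* (SE 0.28), -0.34 for the inhibitory SMAD gene *Smad6* (SE 0.21) and 0.19 for its relative *Smad7* (SE 0.22). *Hjv*, the BMP co-receptor hemojuvelin, had 0.24 (SE 0.17) and *Tmprss6*, the protease that cleaves it, 0.18 (SE 0.13). *Bmp2*, the second endothelial ligand, had 0.02 (SE 0.16). *Erfe*, the erythroid hormone that lowers hepcidin, was too low to be tested, with a mean of 0.28 CPM with vehicle and 0.03 CPM with INT-767.

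In the interleukin-6 and STAT3 group, none of 11 tested genes passed the test and 2 had an unadjusted p under 0.05 by edgeR, 1 in each direction (32.9% of all genes tested in either). DESeq2 and limma-voom with sample weights each called 1 gene lower, and limma-voom 0 (2811, 2808 and 1124 of all genes in either direction). The pair were *Stat3*, the transcription factor itself (log2 fold change -0.68, SE 0.23, adjusted p = 0.0761 by edgeR), and *Crp*, an acute phase gene (0.77, SE 0.31, adjusted p = 0.111 by edgeR), both named after their values were seen. *Socs3*, the feedback inhibitor of STAT3, had a log2 fold change of 0.21 (SE 0.21). *Saa1*, an acute phase protein, had -0.58 (SE 0.58), with vehicle mice between 179 and 1308 CPM and INT-767-treated mice between 83.2 and 599 CPM. *Il6* itself was not tested, at 0.03 CPM in both groups.

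In the group for cellular iron uptake, 1 gene rose and 3 fell of 11 tested, against 5.04% and 4.68% of all genes tested. Without adjustment 4 had a p under 0.05 and a positive fold change and 4 a negative one (17.4% and 15.6% of all genes tested). DESeq2 called 4 higher and 4 lower, as limma-voom did with sample weights, and without them it called 1 and 2. In either direction these fits called 2811, 2808 and 1124 of all genes, against 1349 by edgeR. Whether this group differed from the other groups was not tested. *Scara5*, a receptor for ferritin, fell most. Vehicle mice had 16.2, 9.09, 14.2, 7.61, 9.38, 13.3 and 9.98 CPM and INT-767-treated mice 1.52, 0.55, 0.42 and 1.35 CPM. Every INT-767-treated mouse was far below every vehicle mouse, with a log2 fold change of -3.43 (SE 0.36) and an adjusted p of 0.000475 by edgeR. The INT-767 levels of *Scara5* rest on few counts, 49 over the 4 mice, against 914 over the 7 vehicle mice. With at least 10 counts required in every mouse, *Scara5* was not fitted. *Lcn2*, lipocalin 2, which binds iron-carrying siderophores and is an acute phase gene, fell from between 190 and 757 CPM to between 50.7 and 130 CPM, without overlap (log2 fold change -2.05, SE 0.45, adjusted p = 0.0191 by edgeR).

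*Slc11a2*, the ferrous iron importer DMT1, fell from 57.1 ± 13.1 CPM (SD, n = 7) to 36.0 ± 5.16 CPM (SD, n = 4), with a log2 fold change of -0.67 (SE 0.19, adjusted p = 0.0452 by edgeR), and its call was lost in 8 of the 11 fits that left out a mouse, with the offset for GC content and length, with limma-voom and with no filter beyond 1 count. Its groups overlapped only at INT-767 mouse 1 (41.9 CPM) and vehicle mouse 1 (41.6 CPM). *Steap3*, the reductase that prepares iron from transferrin for import out of the endosome, rose from 22.9 ± 4.35 CPM (SD, n = 7) to 39.0 ± 9.61 CPM (SD, n = 4), and all INT-767-treated mice were above all vehicle mice (log2 fold change 0.77, SE 0.19, adjusted p = 0.0283 by edgeR). *Slc39a14*, the importer of iron not bound to transferrin, had a log2 fold change of -0.54 (SE 0.33, adjusted p = 0.256 by edgeR).

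None of the 6 tested genes for iron regulatory proteins and iron oxidation passed the test, and 1 had an unadjusted p under 0.05 by edgeR, against 32.9% of all genes tested. That gene was the ferroxidase *Heph* (log2 fold change -0.57, adjusted p = 0.101), named after its value was seen. Neither DESeq2 nor limma-voom called any, whereas 2 rose when sample weights were used in limma-voom. *Aco1*, which encodes IRP1, had a log2 fold change of -0.08 (SE 0.33), *Ireb2*, which encodes IRP2, 0.76 (SE 0.37, adjusted p = 0.167) and *Cp*, the ferroxidase ceruloplasmin, -0.21 (SE 0.21). Among mitochondrial genes, 1 of 14 rose and none fell, against 5.04% and 4.68% of all genes tested. By edgeR 7 of the 14 had an unadjusted p under 0.05 with a positive fold change (17.4% of all genes tested) and 0 with a negative one. DESeq2 called 3 higher and limma-voom 1, or 3 with sample weights, and each of them 0 lower. In either direction these fits called 2811, 1124 and 2808 of all genes. *Abcb10*, a transporter of the inner mitochondrial membrane, rose from between 22.7 and 27.4 CPM to between 32.7 and 43.5 CPM (log2 fold change 0.54, SE 0.12, adjusted p = 0.0213 by edgeR). Its call was also lost with no filter beyond 1 count.

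The haem group had 1 gene higher and 1 lower of 19 tested, against 5.04% and 4.68% of all genes tested, and these were both haem oxygenases, which break haem down and free its iron. By edgeR, 5 genes of the group had an unadjusted p under 0.05 with a positive and 2 with a negative fold change, against 17.4% and 15.6% of all genes tested. DESeq2 called 3 higher and 2 lower, and limma-voom 1 and 1, or 1 and 2 with sample weights. In either direction these fits called 2811, 1124 and 2808 of all genes. *Hmox1*, the inducible form, had 26.2, 31.3, 51.8, 28.6, 32.4, 37.8 and 29.0 CPM with vehicle and 19.4, 12.6, 12.9 and 13.6 CPM with INT-767. All INT-767-treated mice were below all vehicle mice (log2 fold change -1.21, SE 0.21, adjusted p = 0.00689 by edgeR). *Hmox2*, the constitutive form, had 33.5, 28.4, 29.9, 29.0, 26.3, 29.2 and 29.8 CPM with vehicle and 41.0, 50.2, 42.1 and 42.3 CPM with INT-767. Its order was the opposite, all INT-767-treated mice being above all vehicle mice (log2 fold change 0.58, SE 0.12, adjusted p = 0.0131 by edgeR).

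**Figure D3:**
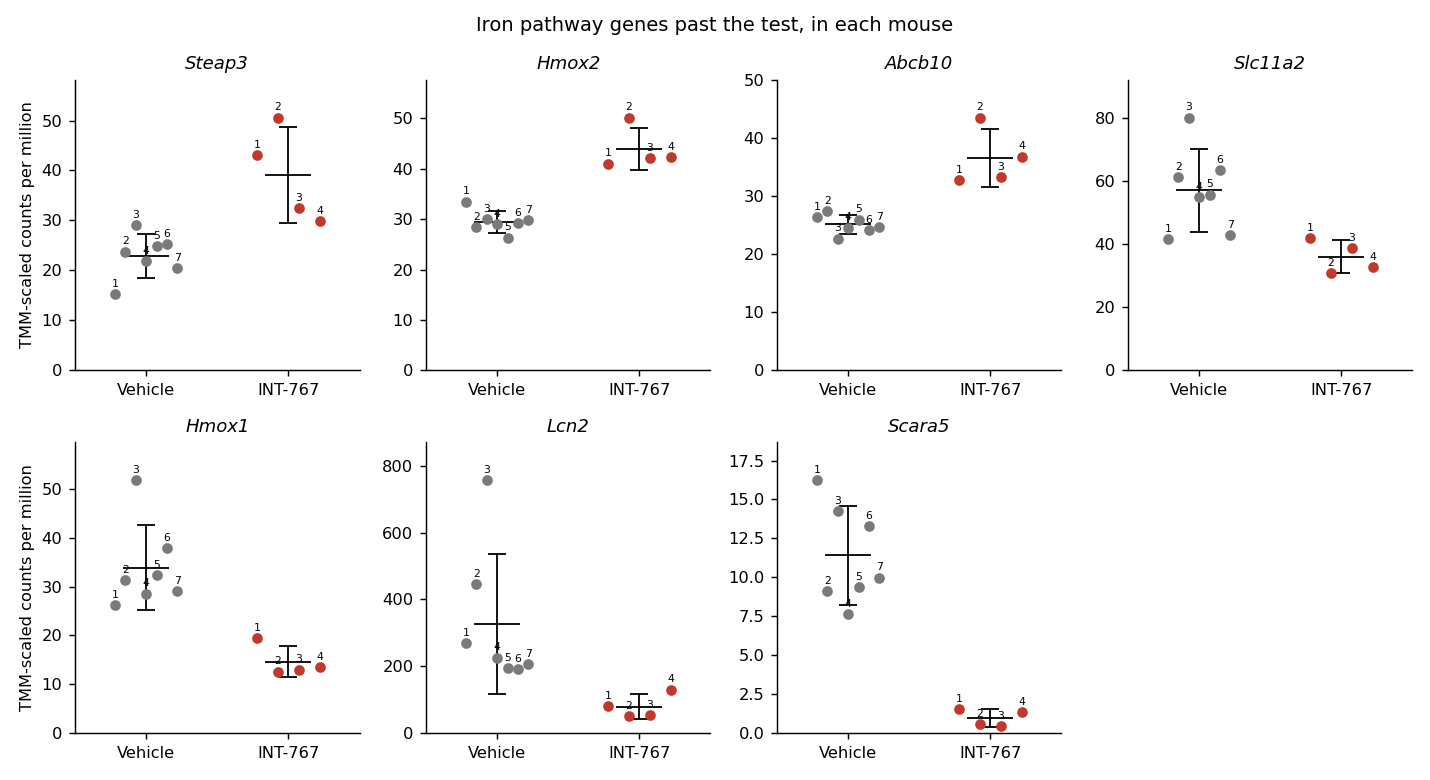
The 7 genes of the surrounding iron groups that passed the test, in CPM on linear axes from 0, for Vehicle (grey) and INT-767 (red) mice, with mean ± SD. In 6 of the 7 the groups do not overlap, and *Slc11a2* is the exception.

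**Figure D4:**
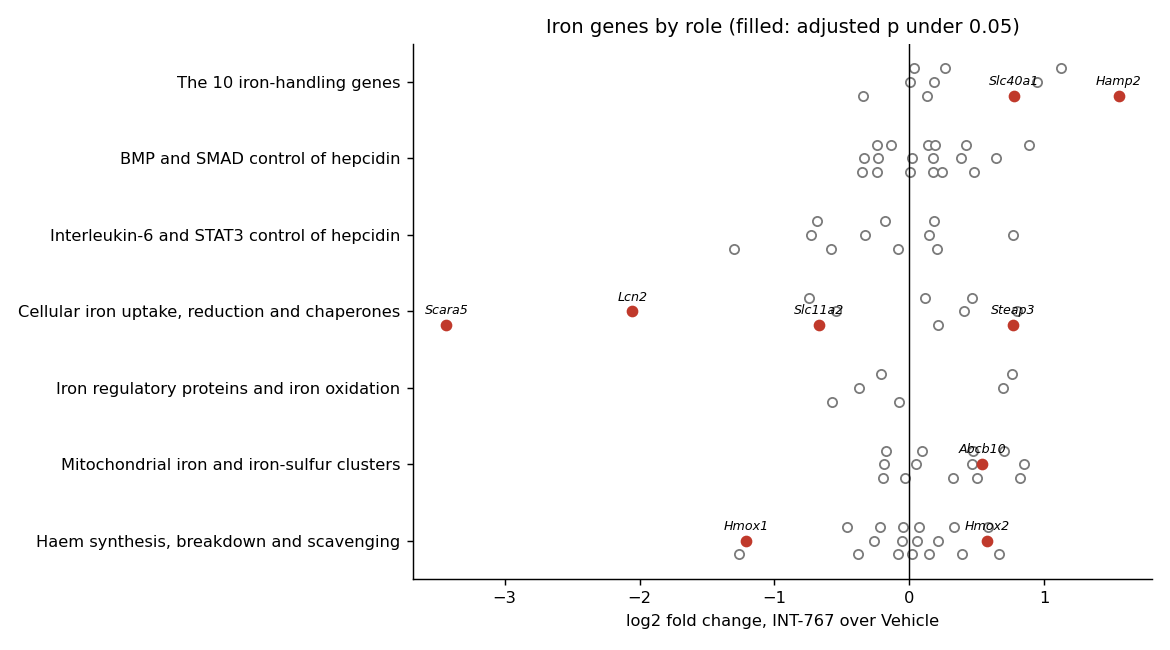
Log2 fold change of INT-767 over Vehicle for each tested gene, by role, with filled points for an adjusted p under 0.05 by edgeR. Calls stand in both directions: *Hamp2*, *Slc40a1*, *Steap3*, *Abcb10* and *Hmox2* are higher, and *Slc11a2*, *Lcn2*, *Scara5* and *Hmox1* are lower.

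Whole liver was sequenced, so that fewer cells of a type and less RNA per cell cannot be told apart. The tissue label was met by the hepatocyte markers, led by *Alb*, of which none of 8 was at 0 in every mouse. Their summed level was 67812 ± 7047 CPM with vehicle (SD, n = 7) and 100795 ± 15670 CPM with INT-767 (SD, n = 4), with an exact Mann-Whitney p of 0.00606. The lowest INT-767-treated mouse, mouse 4 at 81699 CPM, was just above the highest vehicle mouse, mouse 2 at 81142 CPM. With scaling by library size only the groups overlapped, since these mice had 70423 and 78718 CPM, and the exact Mann-Whitney p was 0.0424. None of the 8 genes passed the test one by one by edgeR (5 had an unadjusted p under 0.05 and DESeq2 called 4 higher, and limma-voom 0 without and 5 with sample weights). Over all genes tested, 32.9% had an unadjusted p under 0.05. *Alb* made up most of the hepatocyte sum, at 43057 ± 4297 CPM with vehicle (SD, n = 7) and 63913 ± 19494 CPM with INT-767 (SD, n = 4). Its groups overlapped (exact Mann-Whitney p = 0.164). The fold change was positive for 7 of the 8 hepatocyte genes and negative for *Ttr* (log2 fold change -0.32). Summed stellate cell and myofibroblast markers, led by *Col3a1*, were lower, at 801 ± 410 CPM (SD, n = 7) and 285 ± 97.3 CPM (SD, n = 4; exact Mann-Whitney p = 0.00606), and *Col1a1*, *Col1a2* and *Pdgfrb* of the 8 fell, against 4.68% of all genes tested. Of 10 macrophage markers, led by *Cd5l*, *Cd68* and *Csf1r* fell, with log2 fold changes of -1.16 and -1.14, against the same share of all genes, while the sum was 693 ± 103 CPM with vehicle (SD, n = 7) and 584 ± 326 CPM with INT-767 (SD, n = 4). Their part in the results for *Hamp2*, *Slc40a1*, *Scara5*, *Lcn2* and *Hmox1* was not tested.

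Erythroid and blood markers, led by *Hbb-bs*, summed to 207 ± 85.9 CPM with vehicle (SD, n = 7) and 255 ± 123 CPM with INT-767 (SD, n = 4), and none of 6 tested passed the test (edgeR; 1, *Alas2*, had an unadjusted p under 0.05, DESeq2 called 1 and limma-voom 0, with or without sample weights). None of 9 sinusoidal endothelial markers, led by *Stab1*, and none of 5 cholangiocyte markers, led by *Spp1*, passed it either (3 of each had an unadjusted p under 0.05 by edgeR, DESeq2 called 1 and 2 lower, limma-voom 0 without and 2 and 1 lower with sample weights; the share over all genes tested was 32.9%). The endothelial sum was 289 ± 91.5 CPM with vehicle (SD, n = 7) and 202 ± 43.4 CPM with INT-767 (SD, n = 4), and the cholangiocyte sum 1061 ± 465 CPM (SD, n = 7) and 776 ± 428 CPM (SD, n = 4). Of 6 pancreas markers, led by *Cela1*, the 4 genes *Prss1*, *Cpa1*, *Pnlip* and *Amy2a5* were at 0 in every mouse, and the sum was at most 21.7 CPM.

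Libraries also differed in how their levels followed the GC content of genes. Spearman's rho between GC content and a gene's deviation from its mean over the mice was negative in all 4 INT-767 libraries, from -0.26 to -0.06, and in the vehicle libraries it was -0.42 in mouse 1 and -0.12 in mouse 7, and between 0.02 and 0.44 in the others. After these trends, and those on transcript length, were taken out by an offset, the calls for *Hamp2* (log2 fold change 1.37, adjusted p = 0.0216) and *Slc40a1* (0.62, adjusted p = 0.0237) remained, *Tfrc* had 0.68 (adjusted p = 0.0832 by edgeR), and the call for *Slc11a2* was lost.

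**Figure D5:**
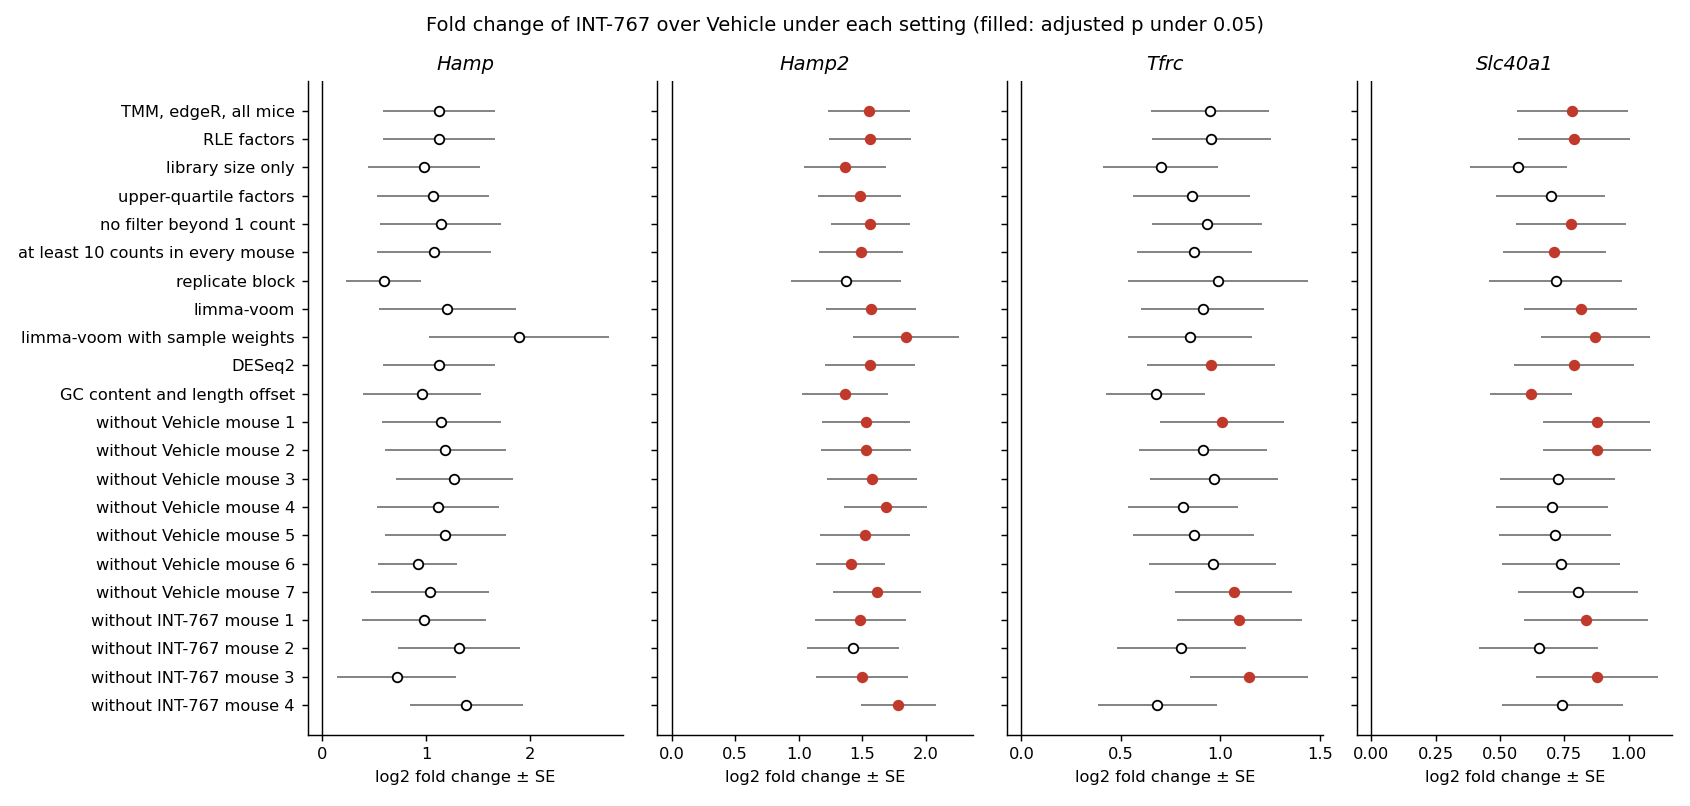
Log2 fold change ± SE of *Hamp*, *Hamp2*, *Tfrc* and *Slc40a1* under each processing setting and with each mouse left out, with filled points for an adjusted p under 0.05. All values are above 0. *Hamp* is not called under any setting shown, and *Hamp2* is called under all but the replicate block and the fit without INT-767 mouse 2.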

How the data were processed

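Liver mRNA of 11 ob/ob mice was sequenced for 75 cycles from stranded libraries. The authors aligned the reads with STAR to GRCm38 with Ensembl release 84 and deposited read counts per gene, without normalization. The STAR version differs between the sources (2.4.0 in the submitters' processing notes), and neither the program that counted the reads, nor its use of strand, nor any batch was known here. No columns were left unused. Groups came from the sample titles.

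The members and gene lists were chosen with earlier results of these data known. Counts were scaled by TMM in edgeR 4.0.16 (R 4.3.3) and filtered by filterByExpr (minimum count 10, minimum total 15). The quasi-likelihood test (robust glmQLFit, then glmQLFTest) had treatment as its single term and covered 13880 genes, with Benjamini-Hochberg adjustment over all of them at 0.05. SE came from the fold change and the F statistic. Members were also compared on CPM by Mann-Whitney tests, exact and two-sided, over 330 assignments. Correlations used log2 CPM with a prior count of 2 and all 120960 permutations within groups. The p-values of edgeR, limma-voom and DESeq2 set the difference between the groups against the spread between these mice. Exact p-values came from reassigning the mice to groups or reordering them within groups.

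All 10 members, every called gene of the 6 iron groups, 12 uncalled regulators chosen by name, the 5 genes closest to each hepcidin and the most abundant marker of each cell type are named. *Acvr2a*, *Stat3*, *Crp*, *Heph*, *Alas2*, *Erfe*, *Il6*, *Ttr* and the markers called or at 0 were named after their values were seen. Alternatives were RLE, upper-quartile and library-size scaling, other filters, a replicate block, leaving out each mouse, limma-voom (limma 3.58.1), sample weights, DESeq2 1.42.0, a threshold of 0.01 and a GC and length offset on 13835 genes (lowess span 0.3). Leaving out mice for the ratio of *Hamp2* to *Hamp*, the members' signs under each alternative and marker sums by library size were added after seeing the data. Promoters came from RefSeq and other sequences and coordinates from GENCODE M21. The coding sequences of the hepcidins are not reported here. Figures were drawn with matplotlib 3.10.9.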

Additional observations from a re-analysis of the deposited data

Results flagged for a closer look

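INT-767 mouse 4 stood apart in *Hamp2*. At 33.6 CPM it was the lowest of its group, and its distance to the next mouse, 81.9 CPM, took up 0.862 of the group's range, more than expected of 4 samples at the 95% level. Without it the log2 fold change of *Hamp2* was 1.79 and its adjusted p 0.00594 by edgeR. The same mouse was also the lowest of its group in *Hamp*, *Trf*, *Tfr2*, *Fth1* and *Bmp6* and the highest in *Tfrc*. It also stood apart in summed markers, with the highest macrophage (1061 CPM, against 364 to 523 CPM in the others of its group), cholangiocyte (1356 against 355 to 806 CPM) and erythroid sums (404 against 110 to 284 CPM) and the lowest hepatocyte (81699 CPM) and endothelial sums (155 CPM). Their part in its *Hamp2* level was not tested. In 22 groups of values examined this way chance marks about 1 in 20.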

How the results depend on the processing

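*Hamp*, *Hamp2*, *Tfrc*, *Slc40a1* and *Bmp6* kept a positive and *Trf* a negative fold change under every alternative. The mouse numbers did not pair the mice (correlations of same-numbered mice between -0.69 and 0.22), and with a replicate block no gene was called: 0 of all genes, 0 members and 0 iron pathway genes in either direction, with *Hamp2* at 1.37 (adjusted p 0.418) and *Slc40a1* at 0.72 (adjusted p 0.465). That block fits a term for each number and leaves vehicle mice 5, 6 and 7 out of the fold change. Little is then left to judge the spread between mice, so that the absence of calls cannot decide whether the calls without the block hold. Leaving out each mouse gave 274 to 3276 called genes, 0 to 3 members higher, 0 to 15 iron pathway genes higher and 2 to 7 lower. The lowest counts came without INT-767 mouse 2 and the highest without vehicle mouse 1. Library size only called 1 member and 0 iron pathway genes higher, and upper-quartile factors 1 member, *Hamp2* in each. Library size only moved the median of all genes to -0.22. DESeq2 called 2811 genes and limma-voom with sample weights 2808, with 11 iron pathway genes higher and 7 lower in each. At 0.01, 245 genes passed, 0 members, 0 iron pathway genes higher and 2 lower.

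Near 0 the sign depended on the setting. Library size only gave -0.20 for *Tfr2*, -0.078 for *Ftl1*, -0.025 for *Fth1* and -0.17 for *Hfe*. Upper-quartile factors gave -0.072 for *Tfr2* and -0.043 for *Hfe*, at least 10 counts in every mouse -0.067 and -0.031, and the block -0.049 and -0.024. Sample weights gave -0.010 for *Tfr2*, and the GC and length offset -0.0015 for *Ftl1*. Over the left-out mice *Tfr2* ranged from -0.078 to 0.057 and *Hfe* from -0.046 to 0.11. The causes were not tested. None of the 14 relations of *Hamp* passed in the vehicle mice alone or with library size only (0 in each). Of the 85 iron pathway genes, 6 had too few counts to be tested.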
